A study of Mus musculus with 5 samples.

Results

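Imprinted genes, of which 40 were named by a fixed list of 20 maternally and 20 paternally expressed mouse genes, were followed through the fusion of embryonic stem cells with hepatoma cells. A gene entered when the transcript record that the array gives for a probe matched it in the RefSeq gene table. By this rule 38 of the 40 genes were measured by 67 probes, 19 in each class, out of 18327 named genes and 41174 probes on each array. H19 and Rtl1 were not matched to a probe and are not analysed here.

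Total RNA from 5 cell populations was hybridised to 1 array each, so no value has a replicate and no p-value is given. ES cells were the E14 mouse embryonic stem cell line, carrying a red fluorescent protein and hygromycin resistance. Hepa1-6 was a mouse hepatoma line, carrying green fluorescent protein and neomycin resistance, grown in 10% fetal calf serum. EHe were hybrids of E14 and Hepa1-6, picked as colonies under both drugs after fusion and therefore clonal, and near tetraploid, so that each nucleus held both genomes. ES and EHe grew with 10% knock-out serum replacement, 1% fetal bovine serum and 1000 units/ml of leukemia inhibitory factor. EHeD7 and EHeD14 were EHe after 7 and 14 days of differentiation, in 15% fetal calf serum per the labels. Medium and cell state changed together and cannot be told apart. The labels describe the differentiation as a monolayer culture and the study's methods describe embryoid bodies, so the form of the culture is not settled here.

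Genomic imprinting is the expression of a gene mainly from the allele inherited from the mother or from the father. It is set by DNA methylation that is laid down in the germ line at imprinting control regions and then kept through each cell division, and many imprinted genes sit in clusters under a shared region. Paternally expressed genes such as Igf2, Mest and Peg3 are known mostly for promoting fetal and placental growth, and maternally expressed genes such as Cdkn1c, Phlda2, Grb10 and Igf2r for limiting it. Stem cell lines and tumours are known to lose or gain imprints in culture. The arrays read the total level of each transcript and do not tell alleles or parental genomes apart, and none of the values below measures imprinting itself. In such bulk RNA, fewer cells that express a gene and less RNA per cell cannot be told apart.

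All levels are given as the log2 signal relative to the 75th percentile of the same array, so that 0 is the 75th percentile. That percentile lay between 1087 and 1456 scanner units, and 54.6% to 67.6% of probes were well above background by the scanner's test. The scanner's own error model gave a median error of 10.0% to 10.1% of the signal per array, and of 0.20 to 0.39 for the log2 differences of members detected on both arrays. This error covers the spot and not the culture, the hybrid clone or the labelling. A difference was called past 3-fold, which is 1.58 on the log2 scale. A probe that was not well above background on 1 array of a pair gives only a bound, written as "at least", set against the detection limit of that array. Such a probe is also called not detected or at background below. ES, EHe, EHeD7 and EHeD14 shared 1 slide and Hepa1-6 was on another, so the slide and the hepatoma cannot be told apart.

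The labels were borne out in most of the marker genes. The 8 measured pluripotency markers were all well above background in ES and EHe, and Pou5f1, Sox2, Zfp42, Esrrb and Tdgf1 were not in Hepa1-6. The others were detected there: Dppa5a at -2.67 and Utf1 at -1.99, both far under ES, and Klf4 at 4.54, within 3-fold of ES (5.52). Albumin and alpha-fetoprotein stood at 6.06 and 6.77 in Hepa1-6, and neither was above background in EHe, EHeD7 or EHeD14. The hepatoma lacked part of the hepatocyte set: Ttr and Apoa1 were not above background on its array, and Ahsg was found on the other 4 arrays alone.

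The 38 genes were broadly present in stem cells and hybrids, and most of them were not detected in the hepatoma. Detection by the scanner's test covered 35 of the 38 genes in ES and 32 in the hybrid EHe. It covered 36 and 34 after 7 and 14 days of differentiation, but only 16 in Hepa1-6. The share of all named genes above background ranged far less, from 79.4% in EHeD7 to 65.4% in Hepa1-6. Both classes were alike in ES, with 17 of 19 maternally and 18 of 19 paternally expressed genes detected. In Hepa1-6 they were 11 and 5, and the 5 paternally expressed genes were Igf2, Kcnq1ot1, Ndn, Impact and Slc38a4. In all, 20 of the 35 imprinted genes detected in ES were not well above background in Hepa1-6, against 18.6% of all named genes detected in ES. Only 15 of the 38 were detected on all 5 arrays, 10 maternally and 5 paternally expressed.

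**Figure D1:**
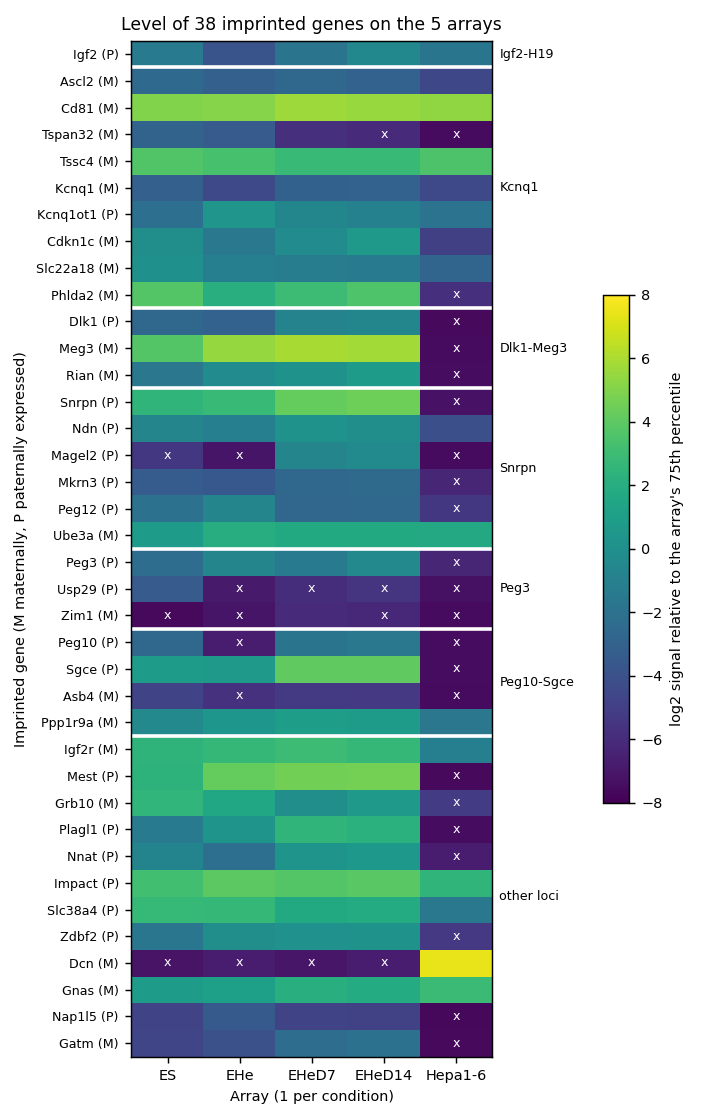
Heat map of the log2 signal of the 38 measured imprinted genes, relative to the array's 75th percentile, on the 5 arrays. Rows are genes grouped by cluster, M and P mark maternal and paternal expression, and a white x marks a probe that was not well above background. The Hepa1-6 column holds 22 of these marks and the ES column 3.

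The first comparison set the parental cells against each other, to see which imprinted genes each brought to the fusion. In Hepa1-6, 23 of the 36 genes compared were called lower than in ES, where 22.3% of all named genes were lower. Dcn and Gnas were called higher, where 13.9% of all named genes were higher. The median difference was -2.66 over the imprinted genes and -0.42 over all named genes. Among the paternally expressed genes 14 of 18 were lower and 0 were higher, with a median difference of -3.18. Among the maternally expressed genes 9 of 18 were lower, with a median of -1.69. The gap between the classes in these counts was smaller without genes whose imprint is described chiefly in placenta or neurons (Cd81, Tspan32, Tssc4, Ppp1r9a, Ube3a, Dcn and Gatm). These are all maternally expressed, so leaving them out could change that class alone. Of them Tspan32 alone was called lower and Dcn was called higher, so their removal by itself raised the share of lower genes. Ascl2, a trophoblast factor called lower, was kept. Without the genes left out, 8 of 11 maternally expressed genes were lower, with a median of -3.55. The smaller gap is thus no evidence on the classes.

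Of the genes not detected in Hepa1-6, those with strong signals in ES gave the largest bounds. Meg3, a maternally expressed long non-coding RNA, had a level of 3.74 in ES and was not well above background in Hepa1-6, at least 527-fold lower. Phlda2, which limits placental growth, was at 3.72 in ES and at least 522-fold lower in Hepa1-6. Grb10, an adaptor that dampens insulin and IGF1 receptor signalling, was at 2.53 in ES and at least 219-fold lower. The same held for paternally expressed genes. Snrpn, which encodes a splicing protein, was at 2.45 in ES and at least 216-fold lower in Hepa1-6. Mest, which encodes a hydrolase-like protein of mesoderm, was at 2.37 and at least 204-fold lower. Sgce, the epsilon member of the sarcoglycan family of membrane proteins, was at 0.81 and at least 69.1-fold lower.

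Other genes were still detected in Hepa1-6 but lower. Cdkn1c, a cyclin-dependent kinase inhibitor, went from -0.08 in ES to -4.94 in Hepa1-6, 29.0-fold lower. Slc38a4, an amino acid transporter of liver and placenta, went from 2.71 to -1.60, 19.9-fold lower. Igf2r, the receptor that takes IGF2 to the lysosome, went from 2.43 to -1.12, 11.7-fold lower. These genes were called lower on every setting tried, with Cdkn1c at -2.93 by normexp background correction in place of -4.86. In the hybrids Slc38a4 read 2.65 in EHe, 1.69 in EHeD7 and 1.84 in EHeD14, and Igf2r read 2.68, 2.96 and 2.63, so both stayed within 3-fold of ES. Ndn, a MAGE family growth suppressor, read -0.74 in ES and -4.12 in Hepa1-6, 10.4-fold lower, with the hybrids at -1.10 (EHe), 0.20 (EHeD7) and -0.08 (EHeD14). Slc22a18, a transporter, read 0.06 in ES and -2.81 in Hepa1-6, 7.36-fold lower, with the hybrids in the same order at -1.10, -1.24 and -1.47. Ascl2, a trophoblast transcription factor, read -2.52 and -4.55, 4.09-fold lower, with the hybrids at -3.09, -2.66 and -2.97. The hybrids lay above the hepatoma for all 3 genes. It alone of these 6 came within 3-fold under other processing, at -1.03 to -1.28 with normexp, quantile normalization or median centring.

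Dimmer paternally expressed genes of ES were at background in the hepatoma as well, with smaller bounds. Nnat was at least 23.1-fold lower than in ES, Plagl1 at least 14.7-fold, Zdbf2 at least 11.7-fold and Peg3 at least 8.14-fold. Peg12, an intronless gene of the Snrpn cluster, read -1.97 in ES and was at least 10.1-fold lower, and Dlk1 and Peg10 were at least 6.33-fold and 6.31-fold lower. Bounds on the dimmest genes depended on the processing. Mkrn3, a ring finger gene of the same cluster, read -3.34 in ES, -3.62 in EHe, -2.67 in EHeD7 and -2.46 in EHeD14, at least 3.90-fold lower in Hepa1-6. Usp29, a ubiquitin protease gene next to Peg3, read -3.39 in ES and was at background on the other 4 arrays, at least 3.76-fold lower. Both came to -0.96 to -1.18 with normexp, quantile normalization or median centring, within 3-fold. Among maternally expressed genes, Rian, a non-coding RNA that hosts small nucleolar RNAs, read -1.68 in ES, -0.29 in EHe, 0.20 in EHeD7 and 0.77 in EHeD14, and was at least 12.3-fold lower in Hepa1-6. Tspan32 was at least 5.19-fold lower. Tspan32 also came within 3-fold with quantile normalization (-1.47), and Peg10 with normexp (-1.54).

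Dcn and Gnas went the other way. Dcn encodes decorin, a small proteoglycan of the extracellular matrix, and its level was 7.46 in Hepa1-6 and not above background on the other 4 arrays, at least 7530-fold higher than in ES. Gnas encodes the stimulatory G protein alpha subunit, and its brightest probe read 0.77 in ES and 2.89 in Hepa1-6, with the hybrids between them at 1.03 in EHe, 2.01 in EHeD7 and 1.84 in EHeD14. The Gnas difference of 2.12 belongs to that probe. The locus makes several transcripts of opposite imprint, its 3 probes follow 3 records, and their mean gave -0.61. Cd81, Tssc4, Ube3a, Kcnq1, Ppp1r9a, Impact, Igf2 and Kcnq1ot1 were within 3-fold between the parents by their brightest probes, with differences from -1.35 to 0.79. Dimmer probes of Ube3a and Ppp1r9a read 1.88 and 2.23, past 3-fold higher in Hepa1-6. Asb4, Nap1l5 and Gatm were not detected in Hepa1-6 but were so dim in ES, at -4.74, -4.74 and -4.64, that no 3-fold bound could be had against the limit of -5.30.

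Genes of both classes were called lower together in the Dlk1-Meg3 cluster alone. In the Snrpn, Peg3, Kcnq1 and Peg10-Sgce clusters the genes called lower were all of a single class. The other class had few genes there: Ube3a, Zim1, Kcnq1ot1, and Asb4 with Ppp1r9a. Zim1 could not be compared, Asb4 was too dim for a 3-fold bound, and the probes of Ppp1r9a differed in sign. A difference between the classes within these clusters can therefore not be read from the calls. In the Dlk1-Meg3 cluster all 3 measured genes, paternally expressed Dlk1 and the maternally expressed RNAs Meg3 and Rian, were lower in Hepa1-6. In the Snrpn cluster Snrpn, Ndn, Mkrn3 and Peg12 were lower and Ube3a, a ubiquitin ligase gene, was within 3-fold by its brightest probe. Of the Peg3 cluster, Peg3 and Usp29 were lower, and Zim1 was detected in neither cell type. The Kcnq1 cluster was split, with Ascl2, Tspan32, Cdkn1c, Slc22a18 and Phlda2 lower and Cd81, Tssc4, Kcnq1 and Kcnq1ot1 within 3-fold. Peg10 and Sgce were lower in the Peg10-Sgce cluster, and Asb4 and Ppp1r9a were not called. Genes of a cluster share control regions and are not independent of each other.

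**Figure D2:**
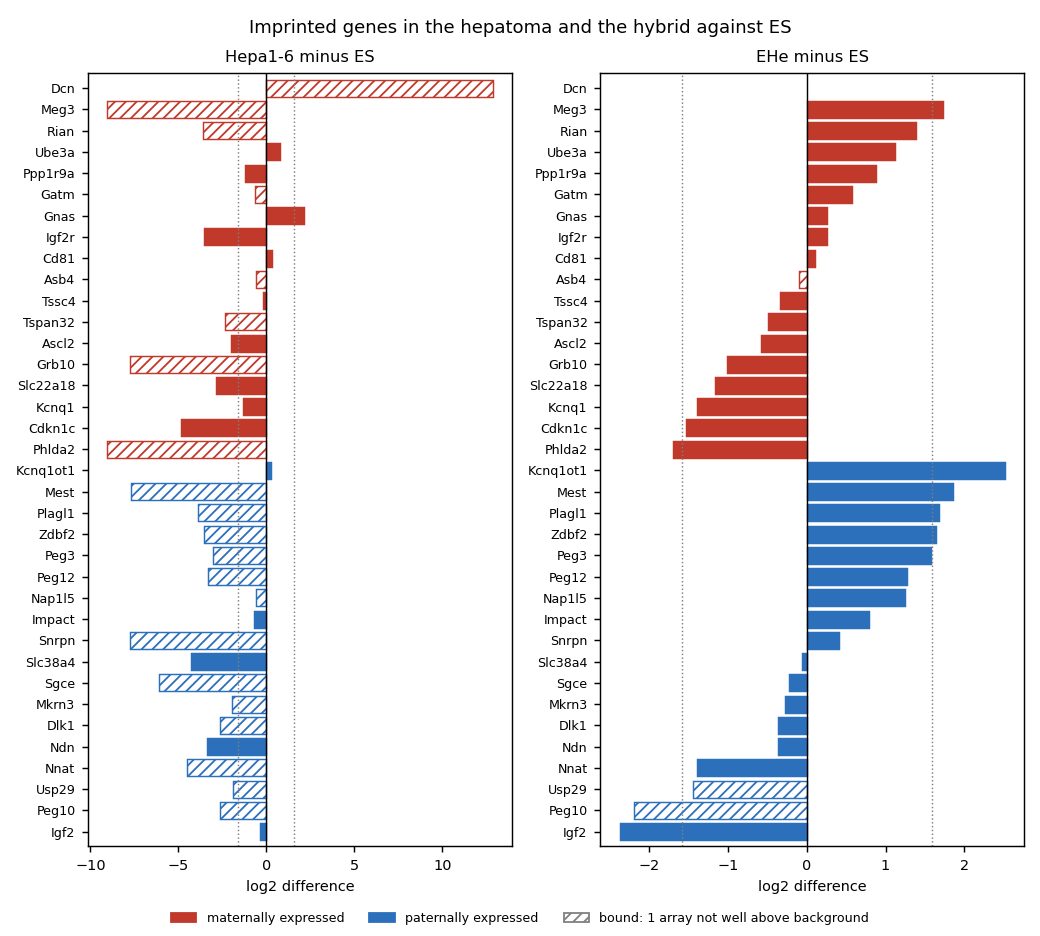
Log2 difference of each imprinted gene in Hepa1-6 minus ES (left) and EHe minus ES (right), with red bars for maternally and blue bars for paternally expressed genes. Hatched bars are bounds, where 1 array was not well above background, and dotted lines mark 3-fold. In the left panel 31 of 36 bars point down, and in the right panel 17 of 35 point up and 18 down. Dcn has no bar on the right, as it was detected in neither ES nor EHe.

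The second comparison asked how far the hybrid kept the stem cell state of these genes. In EHe, 5 of the 35 genes compared were called higher than in ES and 3 lower, where 2.60% and 3.52% of all named genes were. The median difference was -0.06 over the imprinted genes and -0.13 over all named genes. Kcnq1ot1, Mest, Plagl1, Zdbf2 and Meg3 were higher, of which only Meg3 is maternally expressed. Igf2, Peg10 and Phlda2 were lower.

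Kcnq1ot1 is the paternally expressed antisense RNA that silences its cluster in cis, and its brightest probe read -2.17 in ES and -1.90 in Hepa1-6. The hybrids read 0.35 in EHe, -0.64 in EHeD7 and -0.94 in EHeD14. By this probe EHe was the highest of the 5 arrays, 5.73-fold above ES. Of its 6 probes this was the only one detected on every array, and the mean of all 6 gave a difference of 1.26. Probes differed on the order of EHe and Hepa1-6, since a dimmer one read -3.87 in EHe and -3.48 in Hepa1-6 and another was detected in Hepa1-6 alone. In the same cluster Phlda2 read 3.72 in ES, 2.02 in EHe, 2.95 in EHeD7 and 3.58 in EHeD14, and was 3.26-fold lower in EHe than in ES. Cdkn1c, at -0.08 in ES and -1.62 in EHe, was 2.90-fold lower, just inside the 3-fold limit.

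Mest read 2.37 in ES, 4.23 in EHe, 4.58 in EHeD7 and 4.64 in EHeD14, and was not above background in Hepa1-6. It was 3.62-fold higher in EHe than in ES. Meg3 followed the same order, with 3.74, 5.46, 5.90 and 5.80, and was 3.31-fold higher in EHe. Both genes were thus above the stem cell level in a hybrid whose other parent gave no signal over background. Plagl1, a zinc finger transcription factor known to regulate other imprinted genes, read -1.43 in ES and 0.25 in EHe, 3.20-fold higher. Its second, dimmer probe was not above background in EHe, and the mean of both probes gave 0.69. Zdbf2, a zinc finger gene of unclear function, read -1.75 in ES, -0.12 in EHe, 0.07 in EHeD7 and 0.18 in EHeD14, 3.11-fold higher in EHe than in ES. Peg3, a zinc finger gene of growth and maternal behaviour, lay just outside, with -2.28 in ES and -0.70 in EHe, 2.99-fold higher, and read -1.42 in EHeD7 and -0.49 in EHeD14. Several of these calls lay near the limit: with normexp Plagl1 and Zdbf2 came to 1.43 and 1.31, and the mean of its 5 probes put Meg3 at 1.54, all under 1.58.

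Igf2, the fetal growth factor, was measured by 10 spots of 1 probe on each array. Its level over the spots used was -1.45 ± 0.082 in ES (SD, n = 10 spots), -3.83 ± 0.14 in EHe (n = 10), -1.82 ± 0.052 in EHeD7 (n = 8), -0.54 ± 0.044 in EHeD14 (n = 9) and -1.81 ± 0.058 in Hepa1-6 (n = 8). The spots of 1 array share the labelled RNA, and their SD is an error of the measurement only. EHe was thus the lowest of the 5 and below both parents, 5.22-fold under ES and 4.06-fold under Hepa1-6. A second Igf2 probe was not above background in EHe, and it differed in sign between the parents, with 0.89 for Hepa1-6 minus ES against -0.36. Peg10, a retrotransposon-derived gene needed for the placenta, read -2.65 in ES and was not above background in EHe, at least 4.57-fold lower. Sgce, which shares the control region of Peg10, read 0.81 in ES and 0.58 in EHe. The Peg10 difference came to -1.42 with normexp, within 3-fold.

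The promoters of the genes called higher in EHe and not detected in Hepa1-6 are shown because methylated copies of 1 short motif mark many imprinting control regions. ZFP57, a zinc finger protein that keeps imprints in stem cells, binds methylated TGCCGC, or GCGGCA on the other strand. The windows are the 250 bases before the annotated start, 5' to 3' on the strand of the gene, from RefSeq on GRCm38.p6, with each copy of the motif in capitals. Phlda2 is shown beside them as the maternally expressed gene called lower. Where a gene had several annotated starts, the window with the most copies is shown, and a gene was counted if any window held the motif. The set was chosen after the array values were seen.
Mest, chr6:30737800-30738049, plus strand: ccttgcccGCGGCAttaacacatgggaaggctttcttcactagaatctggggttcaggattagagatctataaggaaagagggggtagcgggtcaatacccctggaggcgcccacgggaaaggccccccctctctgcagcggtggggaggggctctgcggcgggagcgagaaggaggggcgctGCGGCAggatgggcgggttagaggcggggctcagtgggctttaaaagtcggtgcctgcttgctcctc
Plagl1, chr10:13090582-13090831, plus strand: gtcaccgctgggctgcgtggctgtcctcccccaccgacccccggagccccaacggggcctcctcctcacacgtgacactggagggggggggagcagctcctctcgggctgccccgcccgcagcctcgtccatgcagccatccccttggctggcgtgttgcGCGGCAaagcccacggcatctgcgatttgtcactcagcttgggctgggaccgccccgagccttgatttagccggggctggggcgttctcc
Zdbf2, chr1:63200108-63200357, plus strand: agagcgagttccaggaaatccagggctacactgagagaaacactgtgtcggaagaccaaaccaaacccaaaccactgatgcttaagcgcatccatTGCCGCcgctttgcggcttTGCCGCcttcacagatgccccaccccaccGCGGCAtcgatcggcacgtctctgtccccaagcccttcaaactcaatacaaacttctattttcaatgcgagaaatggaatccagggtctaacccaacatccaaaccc
Meg3, chr12:109540746-109540995, plus strand: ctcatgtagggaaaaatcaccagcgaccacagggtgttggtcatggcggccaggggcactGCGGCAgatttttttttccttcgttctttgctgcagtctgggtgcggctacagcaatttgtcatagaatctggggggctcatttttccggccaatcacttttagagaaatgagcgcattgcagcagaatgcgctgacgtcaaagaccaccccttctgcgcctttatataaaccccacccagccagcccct
Phlda2, chr7:143502525-143502774, minus strand: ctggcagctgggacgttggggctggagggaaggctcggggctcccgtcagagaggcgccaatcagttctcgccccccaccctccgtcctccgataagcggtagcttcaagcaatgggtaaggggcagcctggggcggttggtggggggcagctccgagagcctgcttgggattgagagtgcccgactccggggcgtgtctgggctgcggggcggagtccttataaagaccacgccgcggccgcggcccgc
The motif was found in 9.84% of the 27025 genes of the promoter table, and in 2 or more copies in 1.02%. Of the imprinted genes 32 were matched and used, and 6 held it (18.8%): 4 of 16 paternally expressed genes and 2 of 16 maternally expressed ones. These 6 were Mest, Plagl1, Zdbf2 and Meg3 above, and Nap1l5 and Zim1. The chromosome that holds Impact was left out for the imprinted genes and kept for the table. Imprinted genes had more windows each, 50 for the 32 genes against 32851 for the 27025. By window the shares were closer, 14.0% for imprinted genes and 8.68% for the table. They were 18.5% for paternally and 8.70% for maternally expressed genes. Overlapping windows were counted apart: those of Mest starting at 30737800 and 30737803 hold the same copies, which raises the paternal and total shares. Zdbf2 held 3 copies and Mest 2, while Kcnq1ot1, also higher in EHe, and Phlda2 held none in this window. A match is a description of the sequence. Control regions can lie outside these windows, and neither binding nor methylation was measured.

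Both parental levels were then combined into their arithmetic mean, as a reference for what equal mixing of both RNAs would give. Of the 25 imprinted genes called between the parents, EHe was nearer to ES for 23, where 90.1% of all named genes called between the parents were nearer to ES. That share is near the background and is not a result about imprinted genes. The comparison shares the ES and EHe arrays with the one above. The exceptions were Usp29 and Peg10, both not above background in EHe, so they rest on signals as measured under the detection limit. Over the mean of the parents by more than 3-fold were 7 of the 25, Mest (7.24-fold), Meg3 (6.62-fold), Plagl1 (6.31-fold), Zdbf2 (5.74-fold), Peg3 (5.63-fold), Rian (5.17-fold) and Peg12 (4.43-fold). Among all named genes called between the parents 6.87% were, and among those lower in Hepa1-6 11.0% were. Of all named genes lower in Hepa1-6, 88.5% were nearer to ES in EHe, against 21 of the 23 imprinted ones. The 7 genes over the mean were all among the 23 lower in Hepa1-6. All 7 were at background there, so their mean was set almost by ES alone and lay well under the ES level. A gene at its ES level would already read over such a mean. These folds thus restate the smaller differences of EHe from ES, such as 3.62-fold for Mest and 3.31-fold for Meg3. Under the mean by more than 3-fold, by signals as measured, were Usp29, Peg10 and Dcn, each at background in EHe. These were 3 of the 25, where 27.5% of all named genes called between the parents were. Among the genes lower in Hepa1-6, 2 of the 23 imprinted ones were (8.70%), against 4.51% of all named genes. Those 2, Usp29 and Peg10, had parental means of -4.3 and -3.6. Set at the EHe detection limit of -4.84, both would be within 3-fold of the mean, so neither is a measured shortfall. Cdkn1c (0.67 of the mean), Phlda2 (0.61), Grb10 (0.99), Slc22a18 (0.78) and Nnat (0.75) lay at or under it.

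**Figure D3:**
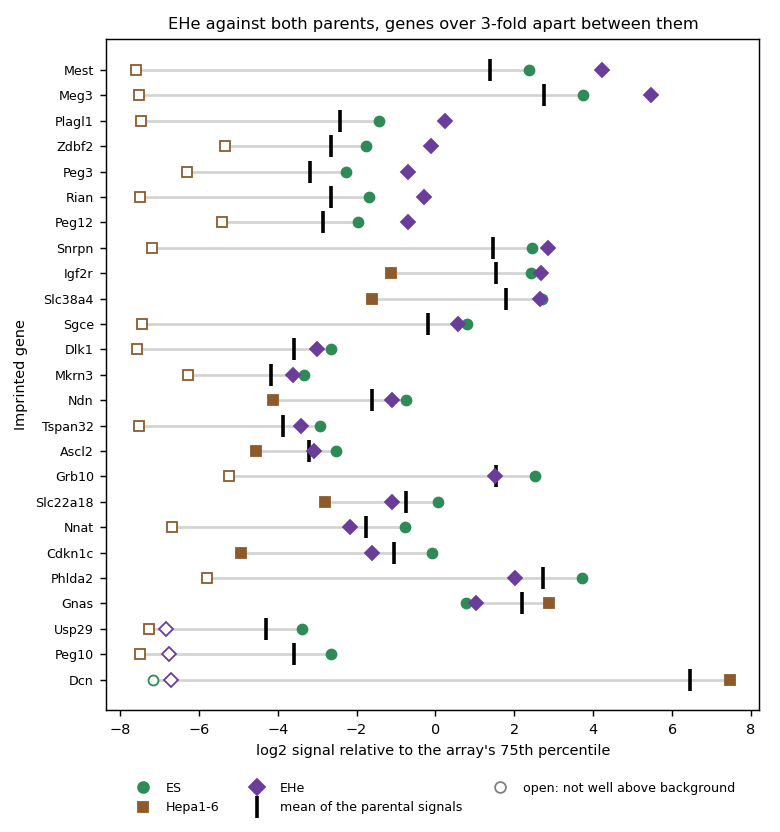
Log2 signal relative to the array's 75th percentile in ES (circles), Hepa1-6 (squares) and EHe (diamonds) for the 25 imprinted genes over 3-fold apart between the parents, with a black bar at the mean of the parental signals. Open symbols were not well above background. The 7 uppermost diamonds, Mest to Peg12, lie to the right of both parents, and Dcn at the bottom has its EHe symbol at background.

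The third comparison followed the hybrid through differentiation. At day 7, 8 of 36 genes were called higher than in undifferentiated EHe, where 7.12% of all named genes were, and Tspan32, Peg12 and Grb10 were called lower, where 4.30% were. At day 14, 10 of 35 were higher, where 7.37% were, and Tspan32 and Peg12 were lower, where 4.76% were. The higher genes were chiefly paternally expressed, 7 of 18 at day 7 and 8 of 18 at day 14, against 1 of 18 and 2 of 17 maternally expressed genes. The medians were 1.12 and 1.09 for paternally expressed genes, 0.44 and 0.34 for maternally expressed genes, and -0.02 at both times for all named genes. Among the genes detected on all 5 arrays the order of the classes turned, with -0.22 and -0.04 for the paternally and 0.50 and 0.28 for the maternally expressed genes. Both times share the EHe array, so the second is no repeat of the first.

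Among the paternally expressed genes, Magel2, a MAGE family gene of the Prader-Willi region, was not above background in ES, EHe or Hepa1-6 and read -0.71 in EHeD7 and -0.39 in EHeD14. Its levels were thus detected only after differentiation, at least 17.6-fold higher at day 7 and at least 21.8-fold at day 14. Sgce read 0.58 in EHe and 4.12 at both times, 11.6-fold higher. Peg10, its neighbour, was not above background in EHe and read -1.87 and -1.61, at least 7.83-fold and at least 9.40-fold higher. Nnat, a small membrane proteolipid known from neurons, read -0.77 in ES, -2.17 in EHe, 0.27 in EHeD7 and 0.56 in EHeD14, 5.44-fold and 6.66-fold higher than EHe. Growth factor and ligand genes were among them. Igf2 was 4.05-fold higher at day 7 and 9.79-fold at day 14, and its day 14 level was above that of both parents by this probe. By the second probe day 14 read -1.89, above ES (-2.54) but under Hepa1-6 (-1.65). Dlk1, an inhibitor of adipocyte differentiation related to Notch ligands, read -2.64 in ES, -3.0 in EHe, -0.85 in EHeD7 and -0.63 in EHeD14, 4.44-fold and 5.19-fold higher. The calls of Plagl1 and Snrpn differed in how firm they were. Plagl1 read 2.47 at day 7 and 2.23 at day 14, 4.67-fold and 3.95-fold higher. Snrpn read 2.86 in EHe, 4.23 in EHeD7 and 4.44 in EHeD14, 2.59-fold and 3.0-fold higher, on either side of the limit, and its day 14 difference came to 1.56 with normexp, 1.43 with median centring and 1.54 by the mean of probes, all under 1.58. The Peg12 level, of a further gene of the Snrpn cluster, went the other way, from -0.70 in EHe to -2.74 and -2.63, 4.12-fold and 3.81-fold lower.

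Among the maternally expressed genes, Gatm, an enzyme of creatine synthesis, read -4.64 in ES, -4.06 in EHe, -2.29 in EHeD7 and -2.05 in EHeD14, 3.41-fold and 4.05-fold higher than EHe. Cdkn1c read -1.62 in EHe, -0.27 in EHeD7 and 0.68 in EHeD14, 2.55-fold and 4.92-fold higher. Phlda2 was 2.96-fold higher at day 14, just under the limit. The day 14 level of Cdkn1c was thus above that in ES, and that of Phlda2, 3.58, a little under its 3.72 in ES. Tspan32, a tetraspanin of blood cells, read -2.93 in ES, -3.42 in EHe and -5.79 in EHeD7, and was not above background in EHeD14. It was 5.19-fold lower at day 7 and at least 4.40-fold lower at day 14. Grb10 read 1.51 in EHe, -0.09 in EHeD7 and 0.61 in EHeD14, 3.04-fold lower at day 7 only, and just within 3-fold with quantile normalization (-1.58). The RNAs Meg3, by its brightest probe, and Rian and the receptor gene Igf2r differed by 1.05 or less from EHe at both times. A dimmer Meg3 probe read 1.34 at day 7 and 1.63 at day 14, past 3-fold at day 14, and its other probes were within 3-fold. With normexp Gatm came to 1.09 and 1.20, Tspan32 to -0.84 and -1.08 and Igf2 at day 7 to 1.39, all within 3-fold, and Peg12 to -1.58 and -1.45.

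**Figure D4:**
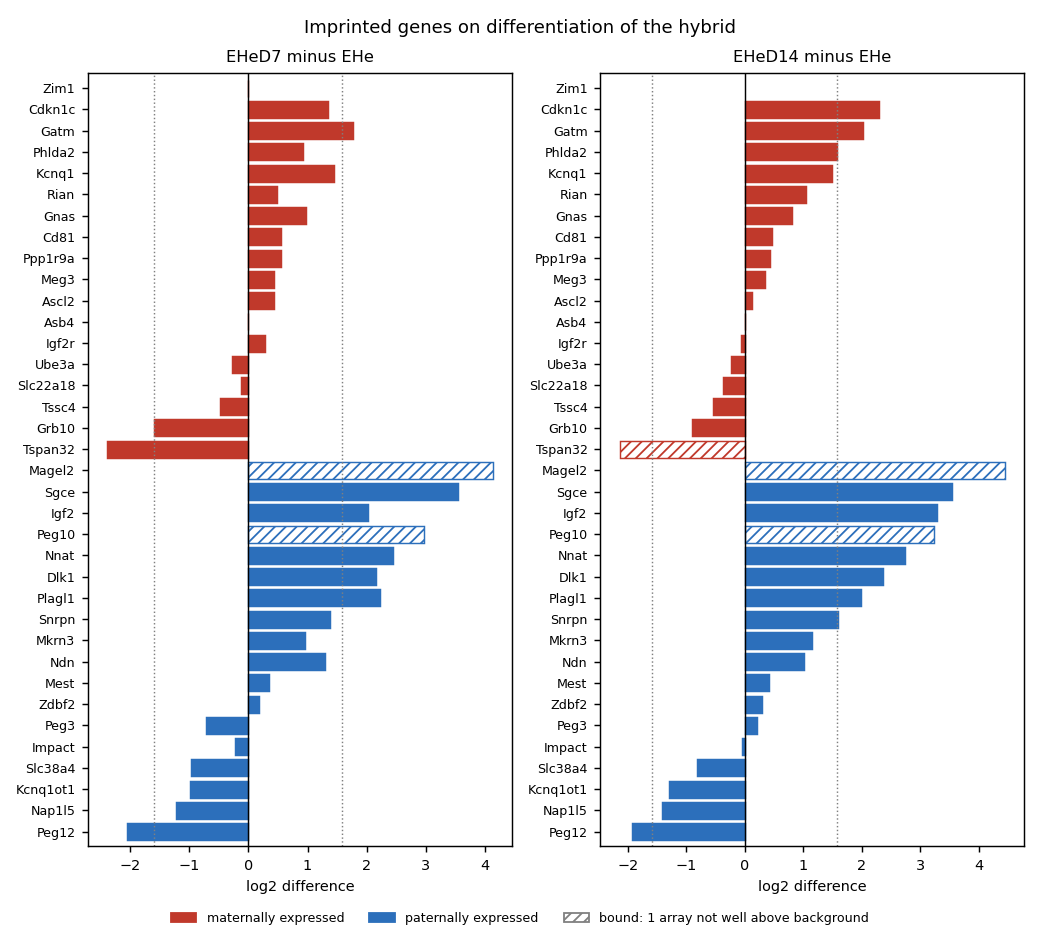
Log2 difference of each imprinted gene in EHeD7 (left) and EHeD14 (right) minus EHe, with red bars for maternally and blue bars for paternally expressed genes, hatched bars for bounds and dotted lines at 3-fold. The longest bars to the right are those of Magel2, at 4.13 and 4.45, and Sgce, at 3.54 in both panels. Cdkn1c at 2.30 and Gatm at 2.02 are the maternally expressed genes past 3-fold in the right panel. Genes without a visible bar differed by about 0 or were detected in neither array of the pair.

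Between day 7 and day 14, 0 of 36 imprinted genes were called in either direction, where 0.518% of all named genes were higher and 0.681% lower. The largest difference was that of Igf2, 2.42-fold higher at day 14. Against Hepa1-6, EHeD14 had 22 of 35 genes called higher, where 18.7% of all named genes were higher, and Dcn alone lower, where 12.9% were lower. EHe had 23 of 33 higher, where 20.0% were, and Igf2, Dcn and Gnas lower, where 14.3% were. Most imprinted genes thus read above the hepatoma both before and after differentiation. Ppp1r9a, not called between the parents, was 4.26-fold higher in EHe and 5.76-fold higher in EHeD14 than in Hepa1-6, and read -0.46 in ES and -1.67 in the hepatoma, against 0.42 (EHe), 0.98 (EHeD7) and 0.85 (EHeD14) in the hybrids. Nap1l5, an intronless gene of the nucleosome assembly family, read -3.49 in EHe, -4.71 in EHeD7 and -4.89 in EHeD14, and in EHe was at least 3.53-fold above Hepa1-6. Of the 8 pluripotency markers 4 were called lower at day 14 than in EHe and 0 higher, where 4.76% of all named genes were lower. Pou5f1 (4.18 in EHeD14), Tdgf1 (3.66), Utf1 (3.36) and Dppa5a (6.59) stayed high and within 3-fold of EHe. Markers of other cell types moved over the same arrays: at day 14, 5 of 9 fibroblast and mesenchyme markers compared and 5 of 7 visceral endoderm markers were called higher than in EHe. Among all named genes 7.37% were. Among the 10 fibroblast and mesenchyme markers 6 were well above background in EHe and 9 in EHeD14, Col1a1 went from -4.17 to 0.11, and Lum was at background on all arrays. The summed signal of that list went the other way, from 4060% of the 75th percentile in EHe to 2100% in EHeD14, with its brightest marker Vim at 5.30 and 3.92. The summed signal of the visceral endoderm list was 77.9% of the 75th percentile in EHe and 450.0% in EHeD14, with Afp, Ttr and Apoa1 at background in both. Of the trophoblast markers 3 of 6 compared were higher at day 14, Krt7 (58.2-fold), Hand1 (at least 35.2-fold) and Eomes (15.7-fold). Cdx2, Plac1 and Ascl2 were compared and not called, with Cdx2 at -4.85 in EHeD14 and -3.46 in ES. Elf5 and Gcm1 were not detected in EHeD14, and Tpbpa was at background on all arrays. The summed signal of this list was 34.9% of the 75th percentile in EHe and 590.0% in EHeD14, chiefly from Krt7, Eomes and Hand1. Krt7 read highest in Hepa1-6, at 2.07. Neural markers went both ways, with 2 of 8 higher and 2 lower, where 7.37% and 4.76% of all named genes were. The part of these cell types in the higher levels of Igf2, Dlk1, Nnat, Peg10 and Sgce was not tested.

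Genes that lay down or keep imprints, together with dioxygenase genes of the Tet family, were also counted, from a list of 22 of which 20 were measured. In Hepa1-6, 9 of the 20 were lower than in ES, where 22.3% of all named genes were, and 1, the dioxygenase gene Tet3, was higher, where 13.9% were. The largest differences were in the de novo methylation genes and in Dppa3, which protects imprints from demethylation in the early embryo. Dnmt3l, the cofactor of the de novo enzymes, read 4.34 in ES and -4.16 in Hepa1-6, 363-fold lower. Dnmt3b was 32.6-fold lower, Dnmt3a 12.4-fold lower and Dppa3 at least 113-fold lower. Trim28, the partner that ZFP57 recruits, was 6.61-fold lower. Zfp57 itself, named here for its motif, read 1.37 in ES and 0.25 in Hepa1-6, 2.18-fold lower and not called. In EHe Dppa3 alone of the 20 was called, from 1.51 in ES to -1.09, 6.09-fold lower, a share near the 3.52% of all named genes. On differentiation Dnmt3b read 2.02 in EHe, 4.48 in EHeD7 and 4.67 in EHeD14, 5.51-fold and 6.29-fold higher. The gene for ZFP57 went the other way. It read 1.57, -0.26 and -0.17, 3.56-fold and 3.33-fold lower. Tet2, a dioxygenase that removes methylation, was 8.81-fold lower at day 7 and at least 13.8-fold at day 14, and Dppa3 was 3.15-fold lower at day 14. These are transcript levels of the enzymes, and DNA methylation was not measured.

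Partners of IGF2 were read from a list of 14 genes, of which 12 were measured. In Hepa1-6, 5 of the 12 were higher than in ES and 3 lower, where 13.9% and 22.3% of all named genes were. Igfbp1, a secreted IGF-binding protein of liver, read 7.61 in Hepa1-6 and was at background on the other 4 arrays, at least 8400-fold higher than in ES. Igfbp2, another binding protein, read 5.99 in ES and was at background in Hepa1-6, at least 2500-fold lower. Igf1r, the receptor through which IGF2 signals, read -0.87 in ES, -1.40 in EHe, 0.55 in EHeD7 and 0.81 in EHeD14, and was at background in Hepa1-6. Ligand and receptor thus lay higher together in differentiated hybrids, Igf1r by 3.84-fold and 4.62-fold over EHe. At both times 3 of 11 partners were called higher than in EHe and 0 lower, where 7.12% and 7.37% of all named genes were higher. They were Irs1, the receptor substrate, by 9.48-fold and 8.81-fold, Igfbp3 by 3.49-fold and 4.34-fold, and Igf1r. Insr, the insulin receptor, was the partner called higher in EHe than in ES, 4.89-fold.

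Where a gene had several probes they mostly gave the same direction. Of 53 differences that could be read by a second probe, over 13 genes, 46 had the same sign, with a median gap of 0.36 on the log2 scale. The largest gap was 3.44, in Ppp1r9a, which encodes a neuronal actin-binding scaffold: its brightest probe read -1.21 for Hepa1-6 minus ES and a dimmer one 2.23.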

How the data were processed

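Total RNA was labelled with Cy3 per the labels (the study's methods name Cy5) and read on 1-colour Agilent arrays. The deposited files hold scanner intensities from Agilent Feature Extraction 10.7.3.1, made by the authors, with the processed signal already background-corrected, and the deposited series table of intensities held the same values. Outlier spots were left out, spots of a probe were averaged as log2, and the log2 of the array's 75th percentile was subtracted. A gene was read by its probe with the highest mean level. Probes were named through the RefSeq gene table: 26888 of 41174 matched. A probe not well above background was set to the higher of its own level and the lowest level well above background on that array. The parental mean, and the EHe level set against it, used signals as measured. Calls were past 3-fold, with no p-value, as n = 1 per condition. All imprinted genes are named, with their levels for those past 3-fold between ES and Hepa1-6 or EHe, or between EHe and EHeD7 or EHeD14. The members and lists were chosen with earlier results of these data known. Alternatives used limma 3.58.1 (normexp, offset 50), quantile normalization, median centring, the mean of probes, signals as measured, a filter on all 5 arrays and 2-fold. Python 3.11.15 with pandas 2.3.3 was used. The number of arrays limits the precision.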

Additional observations from a re-analysis of the deposited data

How the results depend on the processing

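Of 175 recomputed counts and medians 131 kept their value within the limits set, 44 moved and 0 reversed, and of 348 values of single genes 317 kept theirs, 30 moved and 1, Gnas in Hepa1-6 against ES by the mean of its probes (-0.61), reversed. The deposited series table changed none of them. The filter on genes detected on all 5 arrays keeps 15 imprinted genes and so drops those absent from Hepa1-6: it left 1 higher and 6 lower in Hepa1-6 against ES, 1 and 1 in EHe against ES, 1 higher and 0 lower at day 7, 2 higher and 0 lower at day 14, 7 higher in EHe and 5 higher and 0 lower in EHeD14 against Hepa1-6. Under it the medians were -1.28 (maternally expressed) and -0.70 (paternally expressed) for Hepa1-6 against ES, -0.06 for paternally expressed genes in EHe against ES, -0.22 at day 7 and -0.04 at day 14, and 0.11 for EHe over the parental mean. Normexp gave 3 higher in EHe against ES, 1 lower at day 7 and 0 lower at day 14, medians of -1.10 and -1.95 for the maternally and paternally expressed genes in Hepa1-6 against ES, and 0.89 and 0.85 for paternally expressed genes at days 7 and 14. The mean of probes gave 1 higher in Hepa1-6 and 2 higher in EHe against ES, 1 lower at day 14, and medians of -2.66 for paternally expressed genes in Hepa1-6 and -0.34 for maternally expressed genes in EHe. Quantile normalization gave -1.15 and -2.33 for the classes in Hepa1-6 against ES and 0.76 over the parental mean, and median centring -0.91, -2.40 and 0.78, with 2 lower in EHeD14 against Hepa1-6. Signals as measured gave -2.85 and -3.94 for the classes in Hepa1-6 and -0.34 for maternally expressed genes in EHe. At 2-fold, 10 were higher and 9 lower in EHe against ES, 4 lower at day 14, 1 higher between days 7 and 14, and 2 lower in EHeD14 against Hepa1-6. Median centring moved the median of all named genes in Hepa1-6 against ES from -0.42 to 0.30, with 23.0% higher and 12.9% lower, and quantile normalization to -0.11. The cause of the other changes was not tested. No paired analysis was possible because there was a single array for every condition. Signal over background limits the dim genes, for which only bounds could be given, and 1 array per condition leaves culture and clone differences unmeasured.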

Other observations

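A further list of 44 imprinted genes, of which 35 were measured, did not show the lower levels in Hepa1-6 of the first 38 to a like extent. Those had 23 of 36 lower than in ES and a median difference of -2.66, so that result is limited to the chosen list. In Hepa1-6, 7 of 28 were higher than in ES and 9 lower, where 13.9% and 22.3% of all named genes were, with a median difference of -0.60 beside -0.42 over all named genes. Of the 35, 25 were detected in ES and 21 in Hepa1-6. Pon3, a paraoxonase gene of the Peg10 region, was 22.0-fold higher in Hepa1-6. Axl, a receptor tyrosine kinase gene, read 1.20 in Hepa1-6 and was at background in ES, at least 98.2-fold higher, and Atp10a was at least 61.6-fold higher. Smoc1, a matrix protein gene, was at least 99.5-fold lower, and Snurf, which shares its transcript with Snrpn, at least 86.4-fold lower. Airn, the RNA that silences Igf2r in cis on the paternal allele, was picked after its values were seen. It was above background on the Hepa1-6 array alone, at -3.47, the array on which Igf2r was lowest.

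On differentiation 4 of 29 were higher at day 7 and 5 of 28 at day 14, and 4 were lower at each time. Among all named genes 7.12% and 7.37% were higher and 4.30% and 4.76% lower. Calcr, the calcitonin receptor gene near Peg10, read -4.16 in EHe, -0.15 in EHeD7 and -0.27 in EHeD14, 16.1-fold and 14.8-fold higher. Osbpl5, an oxysterol-binding protein gene at the edge of the Kcnq1 cluster, was 13.5-fold and 10.2-fold higher than in EHe, and Axl at least 6.09-fold at day 7. Smoc1 was 7.72-fold and 7.13-fold lower, Gab1, a signalling adaptor gene, differed by -3.43 on the log2 scale at day 14, and Ampd3, an AMP deaminase gene, was 7.42-fold and 9.89-fold lower.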
